A study of Arabidopsis thaliana with 30 samples.

Results

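The transcriptome of detached Arabidopsis thaliana leaves 3 d after detachment was compared with that at detachment (T0). Of 20654 genes tested, 10052 were called and separate from both T0 libraries: the adjusted p was under 0.05, and both 3 d libraries lay above, or both below, both T0 libraries. Here a gene "rose" or "fell" only where it met both conditions. The 4 libraries compared, 2 at T0 and 2 at 3 d, belong to a series of 30 in which leaves were followed for 5 d on medium with or without an inhibitor of auxin transport. All plants were wild type of the Columbia accession (Col-0), raised for 12 d at 22 °C on half-strength Murashige and Skoog medium with sucrose, in a daily cycle of 16 h light and 8 h dark. For T0 the tissue was taken at detachment. For 3 d, blades of the first leaf pair, cut off where blade meets petiole, were kept under continuous light on B5 medium without sucrose and without inhibitor (mock), and the wounded region was collected. Medium, sugar supply, light regime and age thus changed together with detachment, and their effects cannot be told apart. The part of the leaf taken and the time of day of sampling may have differed as well, which was not tested.

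A detached Arabidopsis leaf can form adventitious roots at its cut end, a process called de novo root regeneration. Jasmonate made on wounding is followed by auxin synthesis in the blade, and auxin carried to the wound acts on vascular procambium and nearby parenchyma. There the homeobox gene WOX11 marks the change of competent cells into root founder cells, and WOX5 and WOX7, with LBD16, mark the following change into a root primordium. The blade meanwhile ages without its plant, loses chloroplast proteins and accumulates sugars and pigments.

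Expression is in TPM, which scales length-corrected levels so that every library has the same total. A pair of values is always replicate 1 followed by replicate 2. Each log2 fold change ± SE is a difference of log2(TPM + 1), a scale that understates changes of low genes. Adjusted p-values come from a limma model of all 30 libraries. Nothing in the labels tells whether the replicates are separate plants or cultures. The p-values therefore reflect only how the samples of the series spread within their groups, and that spread may be technical. The sequencing depth is unknown, and fewer cells of a type cannot be told apart from less RNA per cell.

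The T0 libraries stood apart from each other. Across the tested genes, which are not independent replicates, Pearson's r of log2 values was 0.888 between the T0 libraries and 0.988 between those at 3 d. More than 2-fold apart were 4001 genes at T0 and 306 at 3 d, and at most 1159 in any group other than T0. The model takes 1 spread per gene from all 15 groups together. For many genes the SEs and p-values against T0 therefore understate the scatter at T0. A TPM of at least 1 was reached by 17201 and 17894 genes at T0 and by 18736 and 18781 at 3 d. For nearly all lists below, the counts are therefore also given for genes that were called in the same direction without T0 replicate 1 and again without T0 replicate 2, in short "kept". In each of these fits 1 T0 library remained, so the spread between the T0 libraries no longer entered the test. A kept call is therefore not a test against that spread. How far the difference between the T0 libraries enters each list was not tested. In the 4 libraries the mesophyll and leaf markers made up 64442, 53022, 41416 and 42622 TPM, and the carbonic anhydrase, Rubisco and antenna genes among them were high in every library, as in leaf tissue.

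At 3 d 8164 genes had risen (39.5% of those tested) and 1888 had fallen (9.14%). Of these, 4946 (23.9%) and 897 (4.34%) were kept. The change was at least 2-fold for 3066 genes that rose and 713 that fell. The nearest libraries of the 2 groups were at least 2-fold apart for 1645 called genes that were higher (7.96%) and 313 that were lower (1.52%). A further 118 genes passed the test although the groups overlapped, and 3785 were separate without passing it. Without regard to separation 8238 genes passed the test as higher (39.9%) and 1932 as lower (9.35%), and the latter became 1169 without 3 d replicate 1. The split between directions depended on scaling. Of genes called and separate, 81.2% were higher with TPM as deposited, 53.4% after median-of-ratios scaling and 45.3% after quantile normalization. Over the tested genes the median log2 fold change was 0.34, 0.03 and -0.05 in that order, so each list below is to be read against 0.34. List counts with TPM as deposited are to be read against the 39.5% that rose and 9.14% that fell, and kept counts against the kept shares above. List counts under another scaling are to be read against all 20654 tested genes under that scaling, of which fewer rose and more fell. Over all tested genes 4641 rose and 4057 fell after median-of-ratios scaling, and 4038 and 4872 after quantile normalization. A fit to the 4 libraries alone, in which the spread of the T0 pair weighs more, called and separated 1368 higher and 234 lower genes.

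**Figure D1:**
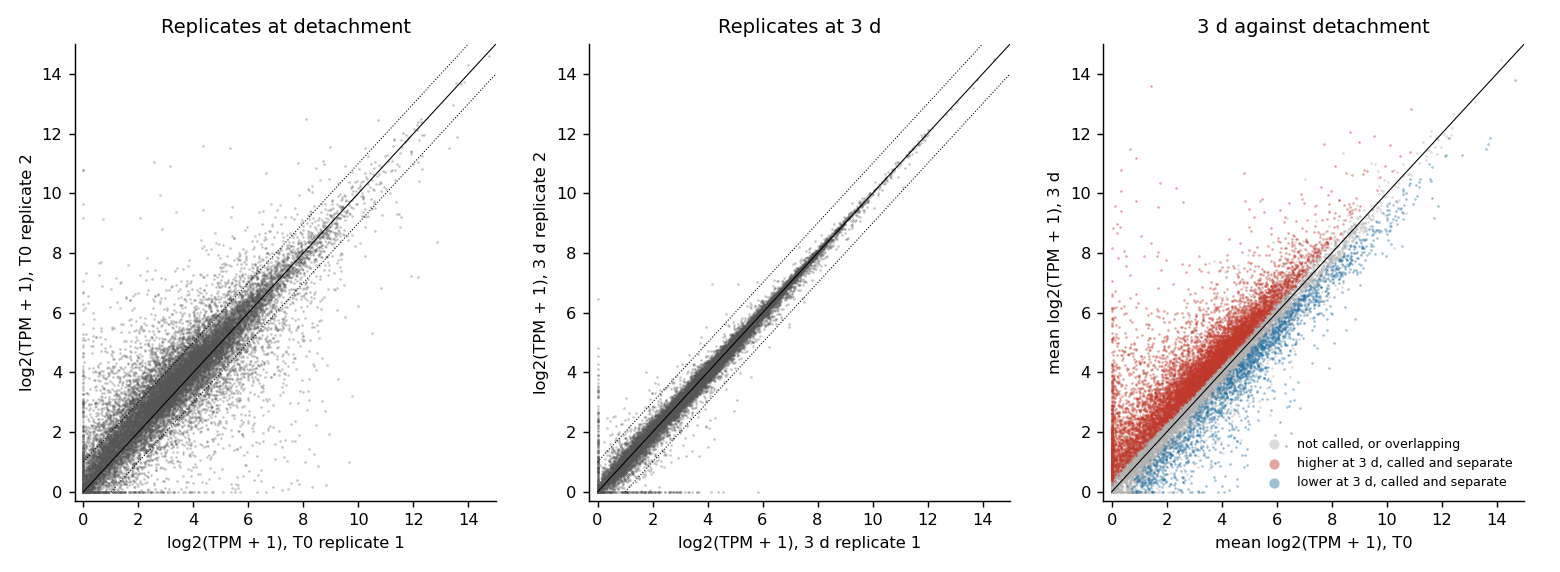
Each point is a tested gene, and all axes are log2(TPM + 1). The left and middle panels plot the replicates of T0 and of 3 d against each other, with dotted lines at a 2-fold difference in TPM + 1, and the right panel plots the mean at 3 d against the mean at T0. The T0 replicates scatter more widely (4001 genes past 2-fold against 306), and red points, the 8164 genes that rose with TPM as deposited, outnumber the 1888 blue ones that fell, a split that reached 45.3% higher under quantile normalization.

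The widest gaps upward were ranked among called genes with a symbol and a mean of at least 10 TPM in the higher group. The first 12 included genes of secreted, defence and pigment-synthesis proteins. EARLI1 and AZI1 encode lipid-transfer-like proteins, and AZI1 acts in systemic immunity. EARLI1 stood at 0 and 0.61 TPM at T0 and 1762 and 1781 TPM at 3 d. This is a log2 fold change of 10.45 ± 0.37 with adjusted p = 1.88e-12, with no overlap of the groups. AZI1 stood at 0.07 and 0.48 TPM at T0 and 693 and 669 TPM at 3 d (log2 fold change of 9.08 ± 0.37 with adjusted p = 5.68e-12). In the same stretch of chromosome 4 as EARLI1, AT4G12490 (chr4:7409621-7410406) stood at 0 and 1.55 TPM at T0 and 3081 and 2692 TPM at 3 d (log2 fold change of 10.82 ± 0.41 with adjusted p = 2.67e-12). AT4G12495, annotated inside that gene (chr4:7410116-7410397), was listed at 0 and 6.35 TPM at T0 and 12779 and 11822 TPM at 3 d, among the highest values of these libraries. Reads of overlapping or near-identical genes can be split between them by the counting, so the shares of EARLI1, AZI1, AT4G12490 and AT4G12495 are uncertain. These 2 genes without symbol were singled out after their values were seen.

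Extensins, structural glycoproteins that are cross-linked into the cell wall, came next. EXT4 stood at 0.19 and 0.36 TPM at T0 and 1185 and 988 TPM at 3 d (log2 fold change of 9.73 ± 0.20 with adjusted p = 8.02e-16). EXT3 stood at 0.09 and 0.11 TPM at T0 and 815 and 699.8 TPM at 3 d (log2 fold change of 9.43 ± 0.26 with adjusted p = 1.12e-13). All 3 d libraries lay far above all T0 libraries for both. The peroxidase gene Prx37 stood at 0 and 0.03 TPM at T0 and 276 and 293 TPM at 3 d (log2 fold change of 8.14 ± 0.37 with adjusted p = 2.48e-11). MIOX2, a myo-inositol oxygenase that feeds wall sugar synthesis, stood at 0.33 and 0.57 TPM at T0 and 259.7 and 219 TPM at 3 d (log2 fold change of 7.37 ± 0.34 with adjusted p = 3.13e-11). DFR and LDOX encode late enzymes of anthocyanin synthesis. For DFR the values were 0 and 0.31 TPM at T0 and 369.9 and 449 TPM at 3 d, a log2 fold change of 8.48 ± 0.85 with adjusted p = 5.27e-07. LDOX behaved alike, with 0.13 and 0.24 TPM at T0 and 191 and 269.5 TPM at 3 d (log2 fold change of 7.59 ± 0.98 with adjusted p = 8.43e-06).

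Plant defensins and pathogenesis-related proteins formed the rest of the highest group. They are the classical outputs of combined jasmonate and ethylene signalling, in which the factors ERF1 and ORA59 bind the GCC box, a promoter element with the core GCCGCC. PDF1.2 stood at 1.62 and 0.28 TPM at T0 and 2593 and 2042 TPM at 3 d (log2 fold change of 10.30 ± 1.05 with adjusted p = 6.62e-07). Its relatives PDF1.2C, PDF1.3 and PDF1.2B stood at 561 and 448, 833 and 658 and 72.0 and 71.7 TPM at 3 d, against at most 2.62 TPM in any T0 library, and all rose (8.76 ± 0.75, 7.85 ± 0.81 and 6.02 ± 0.62). HEL, the hevein-like protein PR4, stood at 1.86 and 3.04 TPM at T0 and 1353 and 1268 TPM at 3 d (log2 fold change of 8.59 ± 0.75 with adjusted p = 1.04e-07). CHIB, a basic chitinase, stood at 0.52 and 1.26 TPM at T0 and 72.4 and 70.8 TPM at 3 d (log2 fold change of 5.29 ± 0.24 with adjusted p = 2.09e-11). ORA59 itself stood at 0 and 0.48 TPM at T0 and 18.4 and 15.01 TPM at 3 d (log2 fold change of 3.86 ± 0.56 with adjusted p = 2.74e-05). The defensin copies are near-identical, and their split between loci is uncertain. The 300 bases before the annotated start of 3 defensin genes are shown because these genes rose together and are the outputs for which the GCC box is best known. They are given 5′ to 3′ on the strand of the gene from RefSeq's TAIR10.1 genome, with GCCGCC in capitals:
PDF1.2 (chr5:17907639-17907938, minus strand): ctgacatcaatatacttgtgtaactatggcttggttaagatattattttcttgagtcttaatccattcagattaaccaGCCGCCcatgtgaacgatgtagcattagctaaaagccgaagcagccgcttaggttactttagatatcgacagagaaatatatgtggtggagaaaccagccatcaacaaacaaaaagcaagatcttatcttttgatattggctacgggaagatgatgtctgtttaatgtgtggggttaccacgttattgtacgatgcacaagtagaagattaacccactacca
PDF1.2B (chr2:11088823-11089122, plus strand): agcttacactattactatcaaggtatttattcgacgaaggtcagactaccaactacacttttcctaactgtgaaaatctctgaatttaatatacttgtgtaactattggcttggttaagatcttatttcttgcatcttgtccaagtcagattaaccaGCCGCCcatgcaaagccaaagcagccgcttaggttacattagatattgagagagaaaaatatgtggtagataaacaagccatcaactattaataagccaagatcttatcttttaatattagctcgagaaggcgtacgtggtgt
PDF1.2C (chr5:17909508-17909807, minus strand): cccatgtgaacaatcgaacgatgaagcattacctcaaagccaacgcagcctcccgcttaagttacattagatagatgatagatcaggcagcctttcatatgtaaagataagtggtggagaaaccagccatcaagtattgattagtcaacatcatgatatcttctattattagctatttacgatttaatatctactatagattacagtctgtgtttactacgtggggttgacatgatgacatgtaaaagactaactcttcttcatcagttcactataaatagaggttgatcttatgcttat

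GCCGCC, searched on both strands, occurred once in the windows of PDF1.2 and PDF1.2B, beginning 222 and 143 bases before the start. It did not occur in those of PDF1.2C, PDF1.3, HEL or CHIB. Of 27443 protein-coding genes with a window of this length, 620 (2.26%) held it. Among tested genes 462 of 19193 held it (2.41%), as did 194 of 7971 genes that rose (2.43%).

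**Figure D2:**
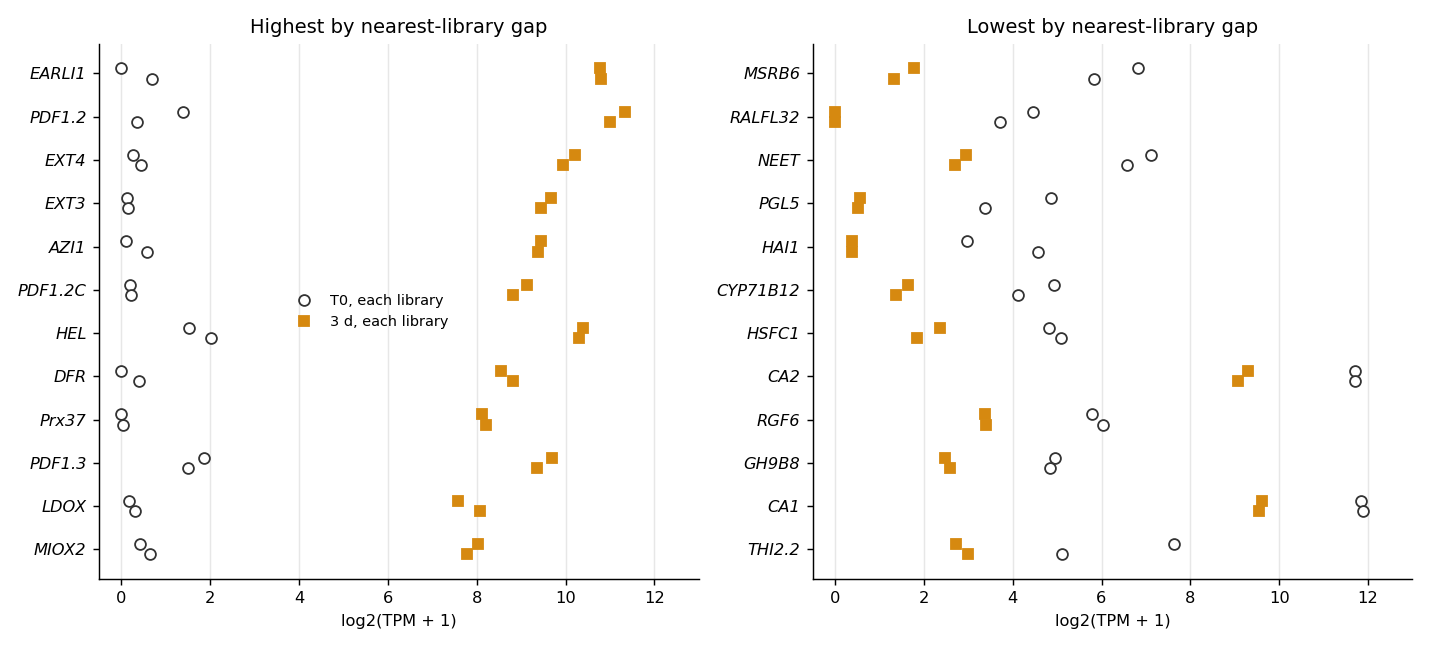
Plotted by library are called genes with a symbol and a mean of at least 10 TPM in the higher group. They are the 12 with the highest and the 12 with the lowest gap between the nearest libraries of 3 d and T0. The axis is log2(TPM + 1), with open circles for T0 and squares for 3 d. In the left panel T0 libraries lie at or below 3.04 TPM and 3 d libraries at or above 191 TPM. In the right panel RALFL32 is listed at 0 in both 3 d libraries, and CA1 falls from 3684 and 3781 TPM to 788 and 747 TPM.

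MSRB6, a methionine sulfoxide reductase, went from 112 and 56.1 to 2.43 and 1.49 TPM (log2 fold change of -4.78 ± 0.39 with adjusted p = 5.32e-08). RALFL32, a gene for a secreted signalling peptide, went from 20.9 and 12.1 TPM to 0 in both libraries (difference of log2(TPM + 1) of -4.08 ± 0.63 with adjusted p = 5.59e-05). NEET, an iron-sulfur protein of organelles, went from 138 and 94.5 to 6.74 and 5.45 TPM (log2 fold change of -4.03 ± 0.61 with adjusted p = 4.34e-05). CA1 and CA2 encode abundant carbonic anhydrases of leaf cells. CA1 went from 3684 and 3781 to 788 and 747 TPM (log2 fold change of -2.28 ± 0.34 with adjusted p = 4.06e-05), and CA2 fell to a similar extent (-2.52 ± 0.40). HAI1, a protein phosphatase that restrains abscisic acid signalling, stood at 6.82 and 22.6 TPM at T0 and 0.31 and 0.31 TPM at 3 d (log2 fold change of -3.37 ± 0.59 with adjusted p = 0.000164). The heat shock factor gene HSFC1, the glycosyl hydrolase gene GH9B8, the cytochrome P450 gene CYP71B12 and the 6-phosphogluconolactonase gene PGL5 also fell (-2.84 ± 0.37, -2.37 ± 0.43, -3.00 ± 0.53 and -3.59 ± 0.46). RGF6, annotated as a root meristem growth factor peptide, stood at 54.0 and 64.2 TPM at T0 and 9.33 and 9.61 TPM at 3 d (log2 fold change of -2.52 ± 0.77 with adjusted p = 0.0127), a call lost without 3 d replicate 1 (adjusted p = 0.0558) or 2 (0.0520). The thionin gene THI2.2 stood at 198 and 33.7 TPM at T0 and 5.57 and 6.92 TPM at 3 d (log2 fold change of -3.53 ± 0.89 with adjusted p = 0.00344), a call lost without T0 replicate 1 (adjusted p = 0.0783).

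Among the 23 measured genes of root founder cells and primordia, 14 rose and 2 fell (12 and 0 kept), with a median log2 fold change of 0.87 against 0.34 for all genes. After median-of-ratios scaling 13 rose and 3 fell, and after quantile normalization 10 and 3. Another 9 members did not reach the expression limit, among them WOX12 (0.04 and 0 TPM at 3 d) and the stem cell factor genes PLT1 and PLT2, which were listed at 0 in all 4 libraries. Of the 32 members 15 were listed at 0 in both T0 libraries. Those of them that were tested reached the limit only in libraries other than T0 and could not fall. The counts and the median of this list therefore lean upward by the filter. WOX11 was listed at 0 in both T0 libraries and stood at 4.52 and 4.17 TPM at 3 d (difference of log2(TPM + 1) of 2.42 ± 0.20 with adjusted p = 5.44e-08). LBD16 stood at 0.04 and 0.04 TPM at T0 and 5.65 and 7.10 TPM at 3 d (log2 fold change of 2.82 ± 0.22 with adjusted p = 3.4e-08). MAKR4, which encodes a membrane-associated regulator of root founder cell formation, went from 0 in both T0 libraries to 10.9 and 12.8 TPM (difference of log2(TPM + 1) of 3.68 ± 0.26 with adjusted p = 1.04e-08). PLT3, an AP2 factor gene of root meristem formation, stood at 1.3 and 1.1 TPM at T0 and 9.45 and 8.37 TPM at 3 d (log2 fold change of 2.17 ± 0.20 with adjusted p = 2.14e-07). GATA23, a founder cell identity gene, stood at 0 and 0.11 TPM at T0 and 2.1 and 1.92 TPM at 3 d (log2 fold change of 1.52 ± 0.27 with adjusted p = 0.000223). Of the genes that mark the primordium beside LBD16, WOX7 and WOX5 stood lower than LBD16 at 3 d. WOX7, listed at 0 at T0, stood at 1.43 and 2.49 TPM (difference of log2(TPM + 1) of 1.54 ± 0.29 with adjusted p = 0.000339), and WOX5, also listed at 0 at T0, at 0.37 and 1.32 TPM (difference of log2(TPM + 1) of 0.83 ± 0.27 with adjusted p = 0.0151). WOX5 no longer passed without T0 replicate 1 (adjusted p = 0.0589) or without 3 d replicate 2 (0.235). Of the 2 that fell, SCR, a factor of root radial patterning that leaf bundle sheath cells also use, stood at 35.8 and 12.8 TPM at T0 and 9.17 and 9.68 TPM at 3 d (log2 fold change of -1.11 ± 0.33 with adjusted p = 0.0103), and its call did not hold without replicate 1 of T0 (adjusted p = 0.281) or of 3 d (0.0534).

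Auxin genes moved in part. Of 12 measured genes of auxin synthesis and its tryptophan branch, 8 rose and 0 fell (5 kept, median 0.70), although after quantile normalization 5 rose and 3 fell. TSA1, the alpha subunit of tryptophan synthase, stood at 37.4 and 40.5 TPM at T0 and 117 and 116 TPM at 3 d (log2 fold change of 1.56 ± 0.24 with adjusted p = 5.33e-05). ASB1, an anthranilate synthase subunit, and TRP1, the next enzyme, rose with it (1.101 ± 0.19 and 1.003 ± 0.19). YUC5, a flavin monooxygenase of the last step, stood at 0.54 and 0.12 TPM at T0 and 2.57 and 3.37 TPM at 3 d (log2 fold change of 1.59 ± 0.28 with adjusted p = 0.000161). Of 25 auxin response genes, 9 rose and 4 fell (7 and 1 kept, median 0.49), and 8 rose and 8 fell after median-of-ratios scaling. The members with the widest gap were the auxin-conjugating GH3 enzymes, which auxin itself induces. GH3.2 stood at 0 and 0.06 TPM at T0 and 22.1 and 18.5 TPM at 3 d (log2 fold change of 4.37 ± 0.45 with adjusted p = 8.12e-07). GH3.3 stood at 0.11 and 0.55 TPM at T0 and 26.8 and 25.1 TPM at 3 d (log2 fold change of 4.36 ± 0.29 with adjusted p = 4.37e-09). GH3.5 stood at 6.0 and 5.62 TPM at T0 and 30.7 and 27.4 TPM at 3 d (log2 fold change of 2.14 ± 0.32 with adjusted p = 3.83e-05). IAA28, a repressor known from lateral root initiation, also rose (1.89 ± 0.22). Of 21 transport genes, 6 rose and 2 fell (5 and 1 kept, median 0.35), but 4 rose and 5 fell under either other scaling. Over all tested genes 39.5% rose and 9.14% fell with TPM as deposited. PILS3, an intracellular carrier, stood at 6.05 and 8.88 TPM at T0 and 54.8 and 61.1 TPM at 3 d (log2 fold change of 2.82 ± 0.13 with adjusted p = 1.92e-11). The transporter gene ABCB4 rose (2.09 ± 0.18) and the kinase gene PID2 fell (-0.88 ± 0.15).

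Of 38 mitosis and cytokinesis genes, 32 rose and 0 fell (24 kept, median 1.16); after median-of-ratios scaling 28 rose and 1 fell, and after quantile normalization 23 and 1. In the 4 libraries their summed level was 217, 521, 670 and 636 TPM, with T0 replicate 2 nearer to 3 d than replicate 1. CYCB2;2, a mitotic cyclin, stood at 1.26 and 2.89 TPM at T0 and 8.20 and 9.73 TPM at 3 d (log2 fold change of 1.74 ± 0.22 with adjusted p = 7.31e-06). CDKB2;2, a cyclin-dependent kinase of G2 and M phase, stood at 3.67 and 6.82 TPM at T0 and 18.3 and 17.2 TPM at 3 d (log2 fold change of 1.63 ± 0.20 with adjusted p = 5.14e-06). HIK, a kinesin of cytokinesis, stood at 1.45 and 2.56 TPM at T0 and 7.71 and 8.58 TPM at 3 d (log2 fold change of 1.63 ± 0.18 with adjusted p = 2.18e-06). CYCB1;1 stood at 0.73 and 1.97 TPM at T0 and 4.39 and 3.91 TPM at 3 d (log2 fold change of 1.18 ± 0.25 with adjusted p = 0.000850). Of 32 replication genes, 19 rose and 1 fell (median 0.65), but just 4 and 1 were kept, 9 rose and 1 fell after median-of-ratios scaling, and 3 rose and 4 fell after quantile normalization. MCM3 and MCM4, subunits of the replicative helicase, were among the 4 kept (1.14 ± 0.22 and 0.93 ± 0.15). The DNA polymerase gene ICU2 rose (log2 fold change of 0.83 ± 0.20 with adjusted p = 0.00292), a call lost without T0 replicate 1 (adjusted p = 0.0602). CYCD3;2, a cyclin of proliferating leaf cells, fell (log2 fold change of -0.995 ± 0.15 with adjusted p = 3.1e-05). In each list 6 genes had over 2-fold the level in T0 replicate 2 that they had in replicate 1.

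Most genes in the joint list of carbon fixation and chlorophyll synthesis fell, while most antenna and photosystem genes did not pass the test. Of 35 genes of carbon fixation and chlorophyll synthesis, 26 fell and 1 rose (13 and 0 kept), with a median of -0.96. After median-of-ratios scaling 29 fell and 0 rose, and after quantile normalization 21 and 1. RBCS1B encodes a small subunit of Rubisco, the carbon-fixing enzyme. It stood at 13494 and 13044 TPM at T0 and 3234 and 3249 TPM at 3 d (log2 fold change of -2.03 ± 0.27 with adjusted p = 1.3e-05). RBCS2B and RBCS3B fell alike (-2.15 ± 0.43 and -1.92 ± 0.22), while RBCS1A, the most abundant copy, stood at 27197 and 24776 TPM at T0 and 14224 and 14299 TPM at 3 d (log2 fold change of -0.86 ± 0.16 with adjusted p = 0.000380). These copies are near-identical, so their split is uncertain. HPR, hydroxypyruvate reductase of photorespiration, stood at 1512 and 857 TPM at T0 and 303 and 319.9 TPM at 3 d (log2 fold change of -1.87 ± 0.36 with adjusted p = 0.000405). The Rubisco activase gene RCA stood at 12310.3 and 3802 TPM at T0 and 2534 and 2451 TPM at 3 d (log2 fold change of -1.46 ± 0.49 with adjusted p = 0.0202), a call lost without T0 replicate 1 (adjusted p = 0.358) or either 3 d library (0.0709 and 0.0790). Of 42 antenna and photosystem genes 13 fell and 0 rose (9 kept, median -0.22), and after quantile normalization 7 fell and 1 rose. After median-of-ratios scaling 18 of the 42 fell and 0 rose, with a median of -0.60. The photosystem II and plastocyanin genes PSBQ-1, PSBO2 and PETE2 fell (-1.07 ± 0.12, -0.90 ± 0.15 and -0.89 ± 0.11). The antenna gene LHCB1.3 stood at 16069 and 20226 TPM at T0 and 21856 and 22930.1 TPM at 3 d, higher in both 3 d libraries but short of the threshold (log2 fold change of 0.31 ± 0.44 with adjusted p = 0.575). The summed level of carbon fixation and chlorophyll genes was 117909 and 95697 TPM at T0 and 43457 and 43066 TPM at 3 d, and that of antenna and photosystem genes 158556 and 124004 against 119508 and 122202 TPM.

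Of 26 measured genes of senescence and chlorophyll breakdown, 16 rose and 1 fell, and all of these were kept (median 1.22), with 15 and 1 under either other scaling. GLN1;1, a cytosolic glutamine synthetase that reassimilates nitrogen, stood at 2.12 and 12.3 TPM at T0 and 169 and 161 TPM at 3 d (log2 fold change of 4.69 ± 0.45 with adjusted p = 3.26e-07). SAG13, a senescence-associated dehydrogenase gene, was listed at 0 in both T0 libraries and stood at 11.2 and 10.5 TPM at 3 d (difference of log2(TPM + 1) of 3.56 ± 0.67 with adjusted p = 0.000332). SEN4, the xyloglucan enzyme XTH24, stood at 8.51 and 9.47 TPM at T0 and 60.01 and 46.9 TPM at 3 d (log2 fold change of 2.44 ± 0.49 with adjusted p = 0.000594), and GLN1;4 rose as well (1.98 ± 0.39). Ribosome genes hardly passed the test. Of 26 cytosolic ribosomal protein genes 1 fell and 0 rose (median -0.17), although 12 fell after median-of-ratios scaling. That member, RPS13A (log2 fold change of -0.46 ± 0.17 with adjusted p = 0.0379), lost its call without T0 replicate 1 (adjusted p = 0.192) or without either 3 d library (0.117 and 0.112). Of 23 ribosome assembly genes 1 rose, REIL1 (log2 fold change of 0.99 ± 0.14 with adjusted p = 3e-05), and 0 fell (1 kept, median 0.28), while 1 rose and 1 fell under either other scaling.

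**Figure D3:**
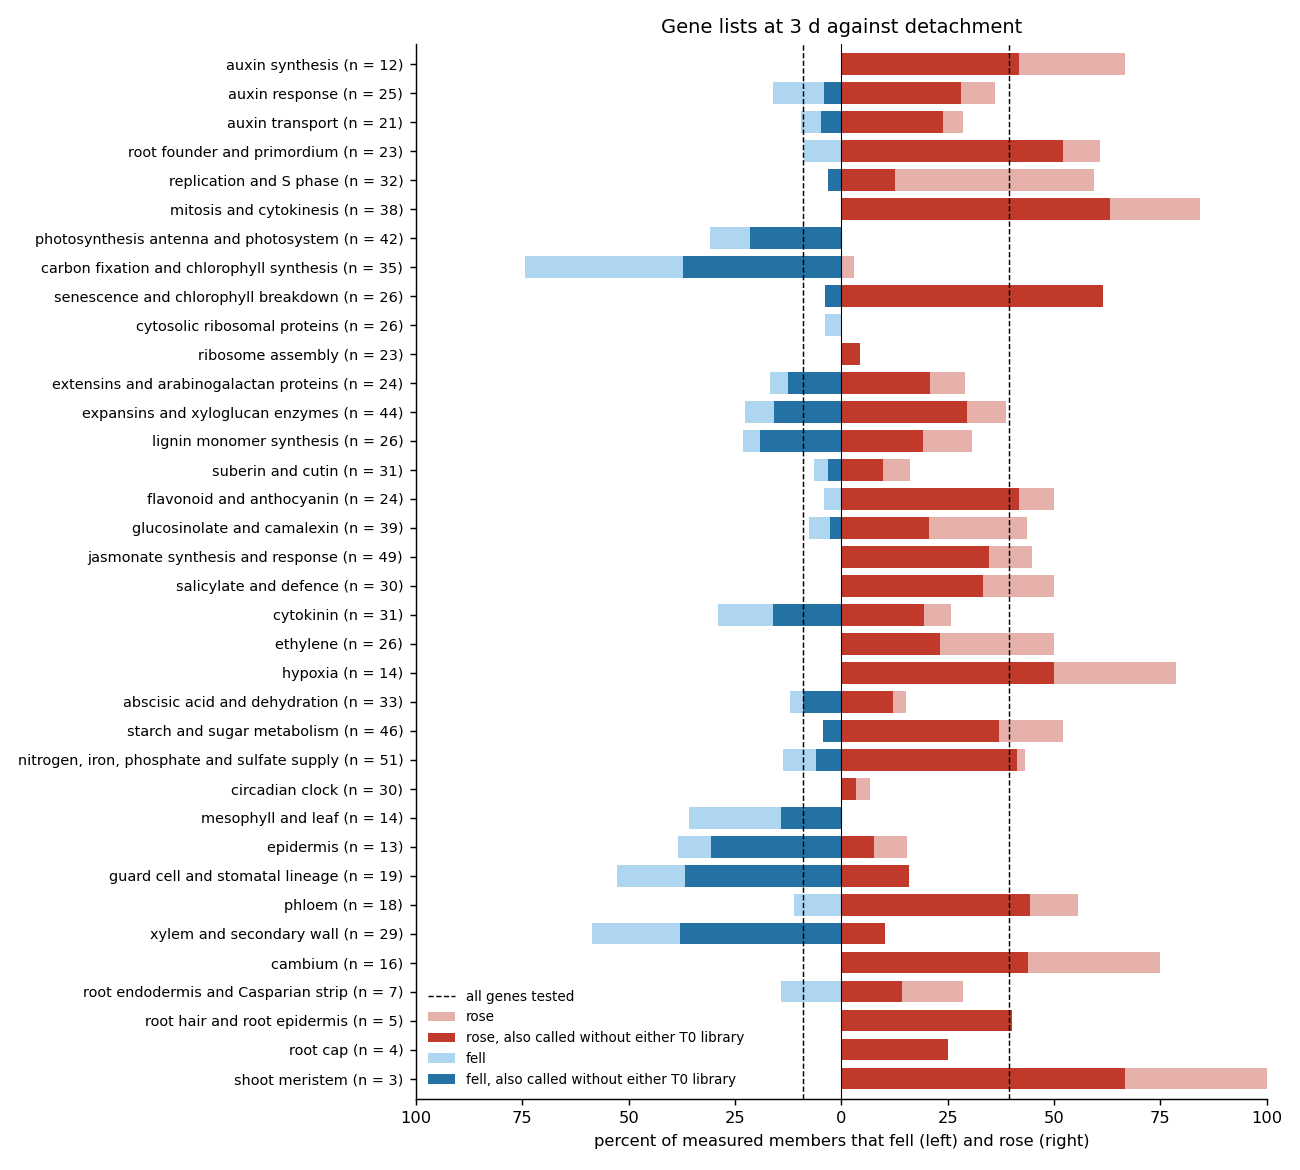
Bars give the percent of measured members of each gene list that rose (right, red) or fell (left, blue) at 3 d, with TPM as deposited, and the darker part gives those also called without either T0 library. Dashed lines mark all genes tested, 39.5% rose and 9.14% fell, and n is the number of measured members. Mitosis reaches 32 of 38 rising, the list of carbon fixation and chlorophyll synthesis 26 of 35 falling, and the ribosomal and clock lists are nearly empty. The counts under other scalings stand with each list in the text.

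Genes of cell wall proteins and enzymes moved in both directions. Of 24 measured extensin and arabinogalactan protein genes, 7 rose and 4 fell (5 and 3 kept, median 0.38). After median-of-ratios scaling 5 rose and 7 fell, and after quantile normalization 6 and 7. Beside EXT3 and EXT4, the proteoglycan gene AGP5 rose (2.62 ± 0.44) and AGP19 fell (-1.31 ± 0.29). Of 44 expansins and xyloglucan enzymes, which loosen and rejoin wall polymers, 17 rose and 10 fell (13 and 7 kept, median 0.01), with 15 rising and 12 or 13 falling under the other scalings. XTH33 stood at 0.09 and 0.37 TPM at T0 and 7.34 and 7.60 TPM at 3 d (log2 fold change of 2.79 ± 0.35 with adjusted p = 6.89e-06). XTH17 fell from 39.3 and 13 to 2.24 and 2.22 TPM (log2 fold change of -2.88 ± 0.40 with adjusted p = 2.1e-05), whereas its close relative XTH19 stood at 1.78 and 0.40 TPM at T0 and 12.9 and 14.0 TPM at 3 d (log2 fold change of 2.87 ± 0.85 with adjusted p = 0.00992), a call lost without T0 replicate 2 (adjusted p = 0.0604). The expansin gene EXPA8 stood at 88.1 and 86.5 TPM at T0 and 20.4 and 18.4 TPM at 3 d (log2 fold change of -2.12 ± 0.57 with adjusted p = 0.00528).

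Genes of lignin and of surface barriers moved in both directions. Of 26 genes of lignin monomer synthesis, 8 rose and 6 fell (5 and 5 kept, median 0.20). After median-of-ratios scaling 6 rose and 8 fell, and after quantile normalization 4 and 8. In this list 14 genes were more than 2-fold lower in T0 replicate 2 than in replicate 1. The peroxidase gene PRX52 went from 0 and 0.04 to 128 and 138 TPM (log2 fold change of 7.04 ± 0.37 with adjusted p = 1.72e-10), while the laccase genes LAC4 and LAC17, which polymerise lignin in vessels, fell (-1.91 ± 0.23 and -1.71 ± 0.28), as did PAL4, a phenylalanine ammonia-lyase gene (-2.60 ± 0.36). Of 31 suberin and cutin genes 5 rose and 2 fell (3 and 1 kept, median 0.12), and 2 and 6 after quantile normalization. ABCG1, a transporter of suberin precursors, stood at 0.05 and 0.19 TPM at T0 and 3.46 and 3.58 TPM at 3 d (log2 fold change of 2.02 ± 0.20 with adjusted p = 5.75e-07), and GPAT6, an acyltransferase of cutin synthesis, rose (1.55 ± 0.35). CYP86A8, a fatty acid hydroxylase gene of cutin synthesis, fell (-1.06 ± 0.19). FAR1, a fatty acyl reductase gene, fell too (log2 fold change of -1.21 ± 0.34 with adjusted p = 0.00684), a call lost without T0 replicate 2 (adjusted p = 0.0645).

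Of 24 flavonoid and anthocyanin genes, 12 rose and 1 fell (10 and 0 kept, median 1.11), with 10 and 9 rising under the other scalings, and 7 were more than 2-fold lower in T0 replicate 2. The summed level of this list was 1112 and 134 TPM at T0 and 1478 and 2017 TPM at 3 d, with T0 replicate 1 nearer to 3 d than replicate 2. Beside DFR and LDOX, TT19, a glutathione transferase that carries anthocyanin to the vacuole, stood at 3.15 and 0.24 TPM at T0 and 203 and 279 TPM at 3 d (log2 fold change of 6.72 ± 0.77 with adjusted p = 2.36e-06). UGT79B1, which adds a sugar to anthocyanin, stood at 0.03 and 0.17 TPM at T0 and 45.4 and 72.2 TPM at 3 d (log2 fold change of 5.73 ± 0.84 with adjusted p = 3.36e-05). Of 39 genes of glucosinolate and camalexin synthesis, 17 rose and 3 fell (8 and 1 kept, median 0.84), with 8 and 8 after median-of-ratios scaling, and 11 exceeded 2-fold in favour of T0 replicate 2. Over all tested genes 39.5% rose and 9.14% fell with TPM as deposited. GSTF6, a glutathione transferase of camalexin synthesis, stood at 0.56 and 15.7 TPM at T0 and 1141 and 1171 TPM at 3 d (log2 fold change of 7.83 ± 0.64 with adjusted p = 5.27e-08). CYP71A12, a P450 of the same branch, went from 0 in both T0 libraries to 10 and 9.36 TPM (difference of log2(TPM + 1) of 3.42 ± 0.56 with adjusted p = 0.000100), and PAD3, the last enzyme of the branch, stood at 0.11 and 0.18 TPM at T0 and 9.96 and 7.88 TPM at 3 d (log2 fold change of 3.11 ± 0.33 with adjusted p = 1.06e-06). MAM3, which lengthens the side chain of aliphatic glucosinolates, stood at 0 and 0.02 TPM at T0 and 49.3 and 50.4 TPM at 3 d (log2 fold change of 5.65 ± 0.55 with adjusted p = 4.34e-07).

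Of 49 jasmonate genes 22 rose and 0 fell (17 kept, median 0.84). Over all tested genes 39.5% rose and 9.14% fell. After median-of-ratios scaling 18 jasmonate genes rose and 1 fell, and after quantile normalization 19 and 5. In this list 28 genes were more than 2-fold higher and 2 lower in T0 replicate 2 than in replicate 1. Apart from the defensins, LOX2, the chloroplast lipoxygenase of jasmonate synthesis, stood at 6.03 and 142 TPM at T0 and 613 and 809.7 TPM at 3 d (log2 fold change of 4.47 ± 0.84 with adjusted p = 0.000317). AOC2, an allene oxide cyclase with near-identical copies, stood at 3.92 and 167 TPM at T0 and 774 and 922 TPM at 3 d (log2 fold change of 4.88 ± 0.95 with adjusted p = 0.000436). CORI3, a coronatine-responsive lyase gene, stood at 0.61 and 4.98 TPM at T0 and 231 and 249 TPM at 3 d (log2 fold change of 6.28 ± 0.52 with adjusted p = 6.07e-08). Of 30 salicylate and defence genes 15 rose and 0 fell (10 kept, median 1.23), and 14 lay over 2-fold above replicate 1 in T0 replicate 2. After median-of-ratios scaling 15 rose and 0 fell, and after quantile normalization 13 and 0. PR2, a glucanase, stood at 0 and 0.12 TPM at T0 and 66.9 and 74.99 TPM at 3 d (log2 fold change of 6.09 ± 0.90 with adjusted p = 3.45e-05). PR1, the salicylate marker, was listed at 0 in both T0 libraries and stood at 33.9 and 125 TPM at 3 d, values well apart (difference of log2(TPM + 1) of 6.05 ± 1.697 with adjusted p = 0.00718), and its call was lost without 3 d replicate 2 (adjusted p = 0.0666).

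The other hormone lists were mixed. Of 26 ethylene genes 13 rose and 0 fell (6 kept, median 0.41). After median-of-ratios scaling 7 rose and 0 fell, and after quantile normalization 6 and 2. The synthesis genes ACS7 and ACS8 reached no more than 4.09 TPM (2.127 ± 0.26 and 1.54 ± 0.18). The receptor gene ETR2 stood at 0.55 and 0.82 TPM at T0 and 4.41 and 4.2 TPM at 3 d (log2 fold change of 1.66 ± 0.35 with adjusted p = 0.00100), and CTR1, the kinase that receptors hold active, rose (1.21 ± 0.16). Of 31 cytokinin genes 8 rose and 9 fell (6 and 5 kept, median -0.08), with 5 rising and 14 or 16 falling under the other scalings. ARR4, a response regulator that cytokinin induces, stood at 52.4 and 49.2 TPM at T0 and 12.9 and 12.3 TPM at 3 d (log2 fold change of -1.93 ± 0.21 with adjusted p = 1.32e-06), and ARR7 of the same class fell (-1.73 ± 0.37). AHP4, a phosphotransfer protein gene, stood at 9.57 and 20.16 TPM at T0 and 163 and 171 TPM at 3 d (log2 fold change of 3.49 ± 0.35 with adjusted p = 6.43e-07). IPT7, a cytokinin synthesis gene, went from 0 in both T0 libraries to 3.27 and 4.78 TPM (difference of log2(TPM + 1) of 2.31 ± 0.16 with adjusted p = 5.34e-09). Of 33 abscisic acid and dehydration genes 5 rose and 4 fell (4 and 3 kept, median 0.16). After median-of-ratios scaling 4 rose and 6 fell, and after quantile normalization 5 and 6. In this list 17 differed more than 2-fold between T0 libraries. CYP707A2, which breaks down abscisic acid, rose (2.24 ± 0.32), as did the dehydration gene RD22 (1.47 ± 0.28). P5CS1, of proline synthesis, stood at 79.8 and 127 TPM at T0 and 28.0 and 31.9 TPM at 3 d (log2 fold change of -1.72 ± 0.32 with adjusted p = 0.000304).

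Hypoxia, sugar and mineral nutrition genes rose in part. Of 14 hypoxia genes 11 rose and 0 fell (7 kept, median 1.103), with 8 and 1 after quantile normalization. PDC2, a pyruvate decarboxylase of fermentation, stood at 3.72 and 18.9 TPM at T0 and 114 and 116 TPM at 3 d (log2 fold change of 3.59 ± 0.64 with adjusted p = 0.000199). The haemoglobin gene PGB1 and the oxidase gene RBOHD rose (1.78 ± 0.26 and 2.36 ± 0.44). Of 46 starch and sugar genes 24 rose and 2 fell (17 and 2 kept, median 1.103), with 23 and 8 after median-of-ratios scaling. GPT2, which imports glucose phosphate into plastids, stood at 0.14 and 0.24 TPM at T0 and 54.3 and 128 TPM at 3 d (log2 fold change of 6.15 ± 0.57 with adjusted p = 2.34e-07). APL3, a subunit of the starch synthesis enzyme ADP-glucose pyrophosphorylase, stood at 9.06 and 11.7 TPM at T0 and 148 and 180.1 TPM at 3 d (log2 fold change of 3.86 ± 0.34 with adjusted p = 1.34e-07). BAM5, a beta-amylase, stood at 0.21 and 0.34 TPM at T0 and 65.8 and 75.5 TPM at 3 d (log2 fold change of 5.81 ± 0.77 with adjusted p = 1.23e-05), and the cell wall invertase gene CWINV1 rose (2.58 ± 0.27).

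Of 51 genes for nitrogen, iron, phosphate and sulfate supply, 22 rose and 7 fell (21 and 3 kept, median 0.43). Over all tested genes 39.5% rose and 9.14% fell. After median-of-ratios scaling 22 supply genes rose and 9 fell, and after quantile normalization 21 and 11. The phosphate transporter gene PHT1;1, best known from root epidermis, stood at 0 and 0.02 TPM at T0 and 54.5 and 53.6 TPM at 3 d (log2 fold change of 5.77 ± 0.17 with adjusted p = 1.98e-13). PHT1;4 of the same family stood at 0.19 and 0.18 TPM at T0 and 27.9 and 33.4 TPM at 3 d (log2 fold change of 4.73 ± 0.18 with adjusted p = 3.55e-12). The sulfate transporter gene SULTR1;2, of root uptake, stood at 0.09 and 0.21 TPM at T0 and 31.6 and 30.2 TPM at 3 d (log2 fold change of 4.80 ± 0.34 with adjusted p = 9.42e-09). LSU1, a gene induced by low sulfur, stood at 1.14 and 0.78 TPM at T0 and 70.2 and 90.2 TPM at 3 d (log2 fold change of 5.37 ± 0.33 with adjusted p = 1.45e-09). For each of these 4 genes the nearest libraries of the groups lay at least 4.60 apart on the log2 scale. In the whole list 22 genes differed more than 2-fold between T0 libraries, but 1 of the 22 rises was not kept.

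Of 30 clock genes 24 differed more than 2-fold between the T0 libraries, 10 higher and 14 lower in replicate 2. The morning repressor genes were far apart, CCA1 with 318 TPM in replicate 1 and 0.13 TPM in replicate 2, and LHY with 447 and 0.17 TPM. Both lay between these values at 3 d, CCA1 at 13.2 and 14.4 TPM and LHY at 23.6 and 25.2 TPM. TOC1, an evening gene, stood at 2.25 and 84.3 TPM at T0 and 56.2 and 47.0 TPM at 3 d. CCA1, LHY and TOC1 did not pass the test (adjusted p of 0.892, 0.967 and 0.201). Without T0 replicate 1 or 2 their differences took opposite signs, 3.71 and -4.43 for CCA1, 4.44 and -4.14 for LHY and -0.70 and 4.01 for TOC1. Whether these genes lay higher or lower at 3 d thus depended on which T0 library was used. Of the list 2 genes rose and 0 fell (1 kept, median 0.20), and 2 and 2 under either other scaling. GRP8, whose RNA-binding product takes part in a feedback loop driven by the clock, stood at 176 and 308 TPM at T0 and 943 and 1022 TPM at 3 d (log2 fold change of 2.07 ± 0.43 with adjusted p = 0.000724). PRR5 stood at 0.09 and 8.87 TPM at T0 and 18.1 and 20.6 TPM at 3 d (log2 fold change of 2.63 ± 0.85 with adjusted p = 0.0166), a call lost without replicate 1 of T0 (adjusted p = 0.345) or without either 3 d library (0.0573 and 0.0731).

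With TPM as deposited, 12 of 16 cambium and 10 of 18 phloem markers rose, and 17 of 29 xylem and 10 of 19 stomatal markers fell. Fewer cambium and phloem markers rose under either other scaling, and so did fewer of all tested genes. Of 16 cambium genes 12 rose and 0 fell (7 kept, median 0.66). After median-of-ratios scaling 6 rose and 0 fell, and after quantile normalization 5 and 1. WOX4, a homeobox gene that maintains cambium, stood at 2.51 and 3.28 TPM at T0 and 14.0 and 14.4 TPM at 3 d (log2 fold change of 1.97 ± 0.21 with adjusted p = 9.95e-07). CLE44, the peptide gene upstream of it, stood at 2.67 and 4.27 TPM at T0 and 11.1 and 11.5 TPM at 3 d (log2 fold change of 1.49 ± 0.18 with adjusted p = 5.13e-06). SMXL5, of early phloem and cambium and thus in both lists, stood at 3.67 and 7.04 TPM at T0 and 33.5 and 34.2 TPM at 3 d (log2 fold change of 2.51 ± 0.26 with adjusted p = 8.08e-07), and the procambium factor gene TMO6 at 15.6 and 12.6 TPM at T0 and 52.0 and 49.5 TPM at 3 d (log2 fold change of 1.78 ± 0.17 with adjusted p = 3.26e-07). Of 18 phloem genes 10 rose and 2 fell (8 and 0 kept, median 0.66). After median-of-ratios scaling 8 rose and 2 fell, and after quantile normalization 5 and 2. OPS, of early sieve elements, NEN4, of their enucleation, and PP2-A1, a lectin of companion cells, rose (1.92 ± 0.19, 1.3 ± 0.20 and 1.66 ± 0.20). Of 29 xylem and secondary wall genes 17 fell and 3 rose (11 and 3 kept, median -0.61), with 22 or 23 falling under the other scalings. XCP2, a protease of vessel elements, stood at 90.8 and 87.8 TPM at T0 and 26.4 and 25.2 TPM at 3 d (log2 fold change of -1.75 ± 0.27 with adjusted p = 4.86e-05). TED6, of secondary wall formation, fell (-1.63 ± 0.26), and CESA4, CESA7 and CESA8, the cellulose synthases of secondary walls, fell together (-0.88 ± 0.18, -0.89 ± 0.20 and -0.82 ± 0.21). Their summed level was 323 and 367 TPM at T0 and 157 and 146 TPM at 3 d for the xylem list, against 111 and 147 and then 258 and 261 TPM for the cambium list.

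Of 19 genes of guard cells and their lineage, 10 fell and 3 rose (7 and 3 kept, median -0.69), with 12 falling and 2 or 1 rising under the other scalings. TMM, a receptor-like gene, and BASL, a polarity gene, both of the dividing lineage, fell (-1.69 ± 0.32 and -1.17 ± 0.23), as did EPFL9, a peptide made in mesophyll that acts on the epidermis (-2.09 ± 0.44), and the anion channel gene SLAC1 of mature guard cells rose (log2 fold change of 1.84 ± 0.19 with adjusted p = 7.53e-07). Of 13 epidermis genes 5 fell and 2 rose (4 and 1 kept, median -0.44), with 8 falling after median-of-ratios scaling and 10 after quantile normalization. ATML1, an epidermal identity factor gene, PDF1 and FDH fell (-0.89 ± 0.19, -2.65 ± 0.65 and -0.82 ± 0.14), and KCS6, of wax synthesis, rose (1.23 ± 0.17). Of 14 mesophyll and leaf markers 5 fell and 0 rose (2 kept, median 0.01), and the leaf factor gene AS1 stood at 34.7 and 50.6 TPM at T0 and 15.1 and 18.9 TPM at 3 d (log2 fold change of -1.26 ± 0.37 with adjusted p = 0.00902), a call lost without T0 replicate 2 (adjusted p = 0.0648) or 3 d replicate 1 (0.0694).

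Markers of root tissues were mostly listed at 0 or low. In the root hair list 13 of 19 members were listed at 0 in both T0 libraries and 8 in both 3 d libraries. The list's summed level was 2.37 and 3.3 TPM at T0 and 61.6 and 61.3 TPM at 3 d, most of it PHT1;1. Of the 5 measured members 2 rose and 0 fell (2 kept, with 1 falling after quantile normalization), PHT1;1 and RSL2, a root hair growth factor gene that stood at 0 and 0.03 TPM at T0 and 3.22 and 2.79 TPM at 3 d (log2 fold change of 1.98 ± 0.21 with adjusted p = 1.2e-06). GL2, WER and CPC, of root hair patterning, did not pass (adjusted p of 0.429, 0.133 and 0.317). Of 7 measured endodermis genes 2 rose and 1 fell (1 and 0 kept, median 0.13), while 0 rose and 2 fell after quantile normalization. MYB36, the factor that switches on the Casparian strip, was listed at 0 at T0 and stood at 0.51 and 0.36 TPM (difference of log2(TPM + 1) of 0.52 ± 0.13 with adjusted p = 0.00267). ESB1 rose (log2 fold change of 0.71 ± 0.17 with adjusted p = 0.00244), a call lost without T0 replicate 1 (adjusted p = 0.0678). CASP1, SGN3, PER64 and SHR did not pass (adjusted p of 0.870, 0.282, 0.308 and 0.541), though without T0 replicate 1 SGN3 passed as lower (adjusted p = 0.000873). Of 4 measured root cap genes 1 rose, the cellulase gene CEL3 (log2 fold change of 3.40 ± 0.21 with adjusted p = 1.7e-09), and 0 fell (1 kept), while 2 fell after median-of-ratios scaling. BFN1, PIN3 and CEL5 did not pass (adjusted p of 0.0631, 0.551 and 0.0921), though without T0 replicate 2 PIN3 passed as lower and CEL5 as higher (adjusted p = 0.0374 and 0.0133).

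Of the shoot meristem list 9 of 12 members did not reach the expression limit, among them STM and WUS, which were listed at 0 in all 4 libraries. The 3 that were measured rose (2 kept), with 2 rising after median-of-ratios scaling and 1 after quantile normalization. CUC1, a boundary gene, stood at 0.04 and 0.04 TPM at T0 and 1.29 and 1.0 TPM at 3 d (log2 fold change of 1.05 ± 0.16 with adjusted p = 5.93e-05), and KNAT6 rose (0.92 ± 0.15). CLV1 rose (log2 fold change of 0.66 ± 0.24 with adjusted p = 0.0287), a call lost without T0 replicate 1 (adjusted p = 0.481) or without either 3 d library (0.0821 and 0.108).

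**Figure D4:**
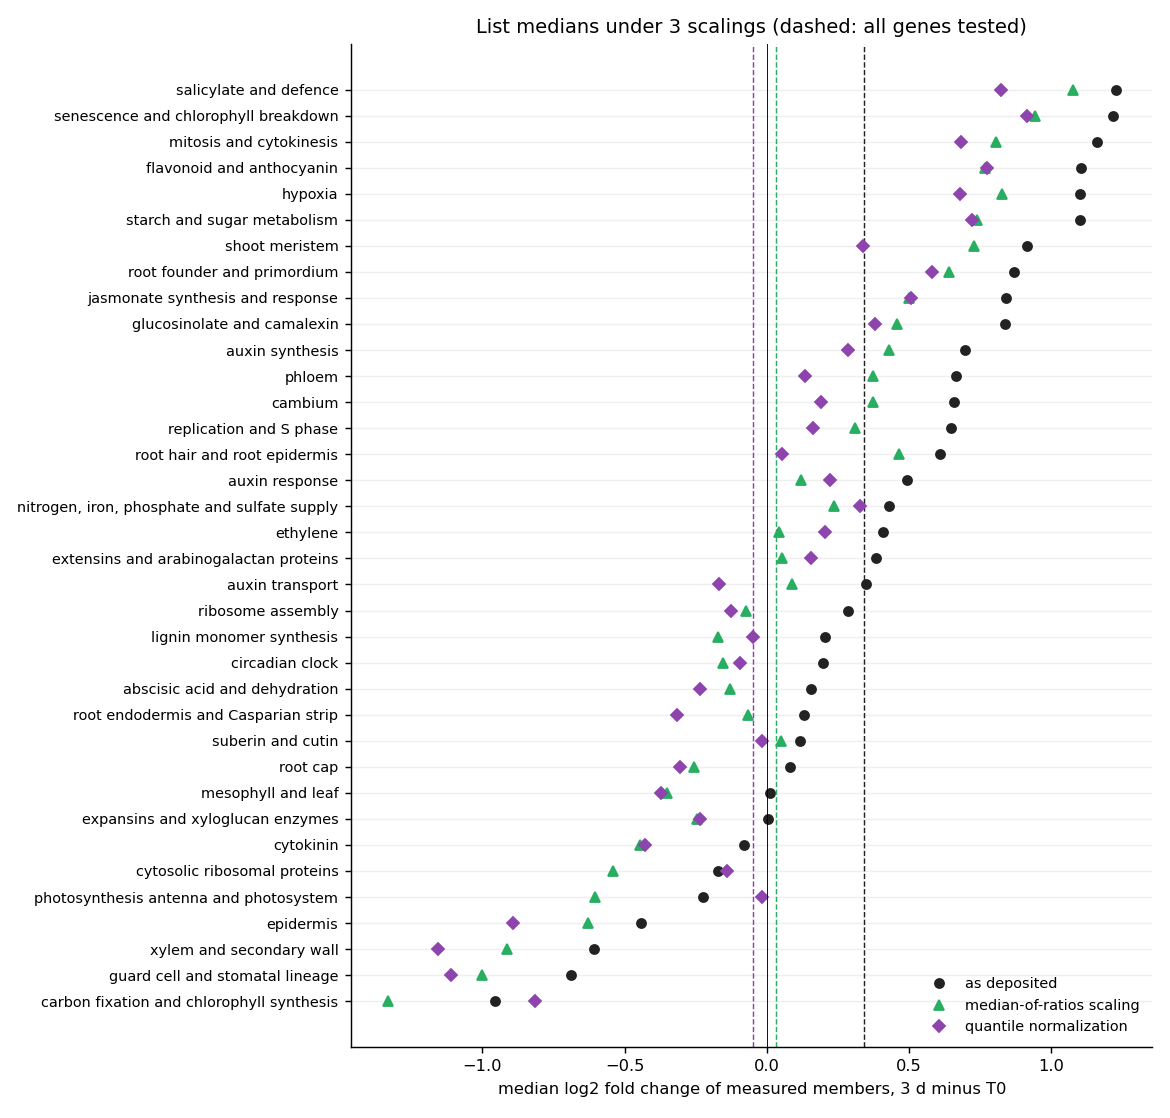
For each gene list the median log2 fold change of its measured members, 3 d minus T0, is shown with TPM as deposited (circles), after median-of-ratios scaling (triangles) and after quantile normalization (diamonds), and dashed lines give the same for all genes tested (0.34, 0.03 and -0.05). Salicylate, senescence and mitosis lie highest as deposited (1.23, 1.22 and 1.16). Lowest lie carbon fixation with chlorophyll synthesis, stomatal and xylem genes (-0.96, -0.69 and -0.61). The median of auxin transport genes lies at 0.35, 0.09 and -0.17 in the order of the symbols, so its direction depends on scaling.

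The neighbouring times of the mock course place 3 d in sequence without the T0 libraries. From 2 d to 3 d 252 genes were higher (1.22%) and 36 lower (0.174%), and the median log2 fold change was 0.06. These counts rest on few libraries: leaving out 1 of the 4 gave 85 to 132 higher and 5 to 18 lower. The 4 highest rises by fold change were OSM34, KTI1, ZAT7 and CHIB, while of the lists 0 of 30 salicylate and defence genes and 1 of 49 jasmonate genes were higher. OSM34, an osmotin-like antifungal protein gene, was listed at 0 and 0.04 TPM at 2 d and stood at 15.7 and 15.7 TPM at 3 d (log2 fold change 4.03 ± 0.16 with adjusted p = 6.7e-11). KTI1, a trypsin inhibitor gene, went from 0.10 and 0.70 to 9.90 and 11.3 TPM (3.08 ± 0.27 with adjusted p = 3.1e-06), and CHIB from 5.97 and 11.3 to 72.4 and 70.8 TPM (2.97 ± 0.24 with adjusted p = 1.02e-06). PHT1;1 went from 15.1 and 16.15 to 54.6 and 53.6 TPM (1.73 ± 0.17 with adjusted p = 1.28e-05). The developmental genes RSL2, CUC1 and PLT7 rose too, PLT7 from 0.22 and 0.25 to 1.05 and 1.2 TPM (0.78 ± 0.10 with adjusted p = 0.000319). These 7 calls held without any 1 of the 4 libraries.

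ZAT7 is a zinc finger factor gene (2.98 ± 0.59 with adjusted p = 0.0139). The lowest changes were those of NEET, the aldo-keto reductase gene ChlAKR, JAZ9, a jasmonate repressor gene, and the subtilase gene ATSBT5.2. NEET went from 47.7 and 61.9 to 6.74 and 5.45 TPM (-2.97 ± 0.61 with adjusted p = 0.0173), and JAZ9 from 106 and 101 to 37.8 and 38.7 TPM (-1.41 ± 0.30 with adjusted p = 0.0254). ChlAKR went from 14.1 and 25.5 to 2.61 and 3.18 TPM (-2.36 ± 0.51 with adjusted p = 0.0259), and ATSBT5.2 from 52.1 and 75.3 to 27.03 and 24.5 TPM (-1.25 ± 0.21 with adjusted p = 0.00379). The calls of ZAT7, NEET, JAZ9 and ChlAKR were lost without any 1 of the 4 libraries, and that of ATSBT5.2 without 3 d replicate 2 (adjusted p = 0.0539) or 2 d replicate 2 (0.1001). Against T0, ChlAKR rose (log2 fold change of 1.36 ± 0.51 with adjusted p = 0.0362) and JAZ9 did not pass (log2 fold change of -0.73 ± 0.30 with adjusted p = 0.0551); the ChlAKR call was lost without any 1 of the 4 libraries (adjusted p from 0.0775 to 0.138). MIOX2 was higher at 3 d than at 2 d (1.84 ± 0.34 with adjusted p = 0.00763), a call lost without 3 d replicate 1 (adjusted p = 0.126) or 2 d replicate 2 (0.138).

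From 3 d to 4 d 287 genes were higher (1.39%) and 121 lower (0.586%), with a median of 0.02, and leaving out 1 of the 4 libraries gave 113 to 138 higher and 16 to 37 lower. In the suberin and cutin list, of which 5 had risen by 3 d, 11 of 31 were higher at 4 d than at 3 d and 1 was lower. CYP86A1, a fatty acid hydroxylase of root suberin, went from 0.29 and 0.20 TPM at 3 d to 8.87 and 5.31 TPM at 4 d (2.67 ± 0.19 with adjusted p = 1.1e-07), ABCG6 from 0.11 and 0.21 to 2.86 and 2.3 TPM (1.62 ± 0.13 with adjusted p = 3.13e-07) and GPAT5 from 0.10 and 0.04 to 1.84 and 1.12 TPM (1.198 ± 0.13 with adjusted p = 2.41e-05). Against T0 these 3 had not passed at 3 d (adjusted p of 0.178, 0.207 and 0.557). MYB36 went to 3.64 and 2.77 TPM (1.55 ± 0.13 with adjusted p = 4.36e-07). PELPK1, a wall protein gene, went from 2.57 and 2.07 to 27.8 and 16.7 TPM (2.77 ± 0.20 with adjusted p = 1.36e-07), and the expansin gene EXPA17 from 1.55 and 0.44 to 11.2 and 7.83 TPM (2.44 ± 0.19 with adjusted p = 3.4e-07). LBD17, a relative of LBD16, went from 1.46 and 0.60 to 4.22 and 3.24 TPM (1.246 ± 0.15 with adjusted p = 9.88e-05). At 3 d LBD17 and EXPA17 had risen from 0 in both T0 libraries (difference of log2(TPM + 1) of 0.99 ± 0.15 with adjusted p = 5.59e-05 and difference of log2(TPM + 1) of 0.94 ± 0.19 with adjusted p = 0.000728).

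In the other direction, PDF1.2B went from 72.0 and 71.7 TPM at 3 d to 3.62 and 1.08 TPM at 4 d (-4.56 ± 0.62 with adjusted p = 0.000321), a call that held without any 1 of the 4 libraries. PDF1.2C went from 561 and 448 to 133 and 22.6 TPM (-3.16 ± 0.75 with adjusted p = 0.0357), a call lost without either 3 d library (adjusted p = 0.272 and 0.153) and without 4 d replicate 2 (0.455). PDF1.2 itself stood at 702 and 207 TPM at 4 d and did not pass (adjusted p = 0.224). EXPA8 and KCS12, of very long fatty acid synthesis, were lower (-2.56 ± 0.57 with adjusted p = 0.0250 and -1.88 ± 0.42 with adjusted p = 0.0253), and PYD4, KAT5 and ChlAKR, all known or annotated in metabolism, were higher (2.83 ± 0.57 with adjusted p = 0.0119, 2.19 ± 0.48 with adjusted p = 0.0250 and 2.27 ± 0.51 with adjusted p = 0.0278). The calls of EXPA8, KCS12, KAT5 and ChlAKR were lost without any 1 of the 4 libraries, and that of PYD4 without either 3 d library (adjusted p = 0.158 and 0.0595) or 4 d replicate 2 (0.214). RALFL32, listed at 0 at 3 d, stood at 10.5 and 6.40 TPM at 4 d (adjusted p = 0.0108), which was lost without either 3 d library (0.0981 and 0.0901) or 4 d replicate 1 (0.135). Against T0, KCS12 had risen at 3 d (log2 fold change of 1.32 ± 0.42 with adjusted p = 0.0151), a call lost without T0 replicate 1 (adjusted p = 0.166) or 3 d replicate 1 (0.103). KAT5 had risen as well (log2 fold change of 1.54 ± 0.48 with adjusted p = 0.0143), which was lost without 3 d replicate 2 (adjusted p = 0.0990).

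**Figure D5:**
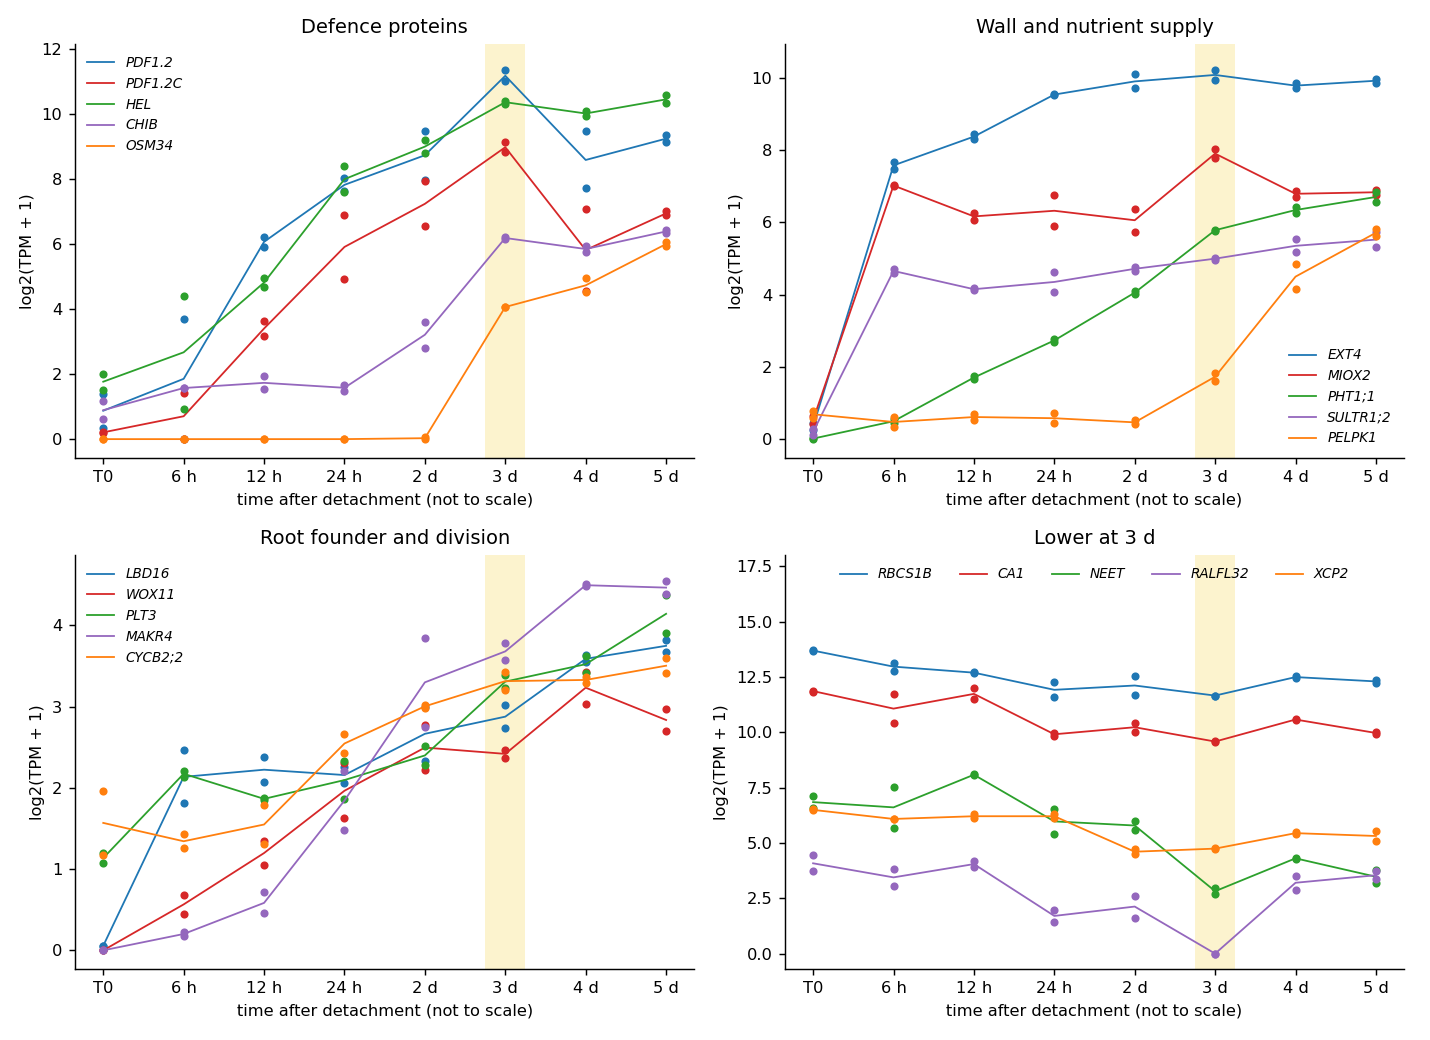
Levels as log2(TPM + 1) of 20 genes from T0 to 5 d on mock medium, with a dot for each library and a line through the mean of the 2; time points are evenly spaced and 3 d is shaded. OSM34 leaves 0 between 2 d and 3 d (15.7 and 15.7 TPM), the defensin genes PDF1.2 and PDF1.2C have their highest means at 3 d, and NEET and RALFL32 their lowest (6.74 and 5.45 TPM, and 0). EXT4 stood at 178 and 203 TPM at 6 h already, and PELPK1 was still at 2.57 and 2.07 TPM at 3 d.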

How the data were processed

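Per the labels, RNA was sequenced from the wounded region of detached leaves. The authors deposited TPM for 37686 genes. RSEM 1.3.2, STAR 2.7.2b, Trim Galore 0.5.0 and the TAIR10 build are named, per the submitters' processing notes. TPM are shares of a library, so a lower level of abundant genes raises the shares of the others, and they keep no depth. Whether counting used strand is not given in the sources used here.

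Genes with at least 1 TPM in at least 2 libraries entered a limma 3.58.1 model (R 4.3.3) of log2(TPM + 1) over all 30 libraries, with the prior variance following the trend with level. Benjamini-Hochberg adjustment ran over all 20654 genes and the threshold was 0.05. Named are the 12 genes with a symbol, at least 10 TPM in the higher group and a call that had the highest and the 12 that had the lowest gap between nearest libraries, up to 4 members of each list by gap and every member of lists with at most 8 measured, the 4 highest and 4 lowest of each step between times, and fixed marker genes. AT4G12490, AT4G12495, ORA59, CORI3, LOX2, AOC2, GATA23, PLT7, LBD17, EXPA17, CYP86A1, GPAT5, ABCG6, CESA4, CESA7 and CESA8 were added after their values were seen. Not every gene that this rule names is reported here. The members and lists were chosen with earlier results of these data known. The 26 pathway and 10 marker lists held 1133 entries, of which 1057 matched a gene in the tables. Symbols came from RefSeq's TAIR10.1 annotation, in which 37390 genes of the tables matched.

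On simulated data for 3 d against T0, run on 20654 genes, 64 of 100 genes changed by a log2 fold change of 1 and 93 of 100 changed by 2 were recovered, with 11 false calls. In the simulation each gene had the same spread in all groups, whereas the real T0 libraries lay further apart than those at 3 d. Recovery and false calls in the real comparison with T0 are therefore not given by it. Replicate numbers were tested for pairing by correlating same-numbered deviations from group means, which gave -0.05 between T0 and 3 d, -0.12 between 2 d and 3 d and -0.04 between 3 d and 4 d, so the numbers were not used as pairs. Alternatives were pseudocounts, filters, scalings, the 4 libraries alone, a minimum fold change, a replicate block and leaving out each library.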

Additional observations from a re-analysis of the deposited data

How the results depend on the processing

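With 2 libraries a group, and T0 libraries far apart, single calls rest on few values, and TPM give no depth. Requiring the nearest libraries to be 2-fold apart left 1645 higher and 313 lower genes at 3 d against T0, and requiring the call without either T0 library left 4946 and 897. Median-of-ratios scaling gave 4674 higher and 4103 lower calls (4641 and 4057 separate), and quantile normalization 4079 and 4918 (4038 and 4872). The 4 libraries alone gave 1368 and 234, and a minimum log2 fold change of 1 gave 865 and 83. Leaving out 1 library gave 5952 to 9742 higher and 1169 to 2427 lower.

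From 2 d to 3 d, a pseudocount of 0.1 gave 164 higher genes, a mean of 5 TPM 47 higher and 14 lower, and quantile normalization 71 lower, with 85 to 132 and 5 to 18 on leaving out 1 library. From 3 d to 4 d, a pseudocount of 0.1 gave 152 and 74, one of 5 gave 436 and 224, no filter 483 higher, a mean of 5 TPM 30 and 31, and quantile normalization 318 lower, with 113 to 138 and 16 to 37 on leaving out 1 library. The causes were not tested, beyond fewer genes or libraries entering.

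A replicate block gave 8111 higher and 1879 lower genes at 3 d against T0 (8048 and 1842 separate), 233 and 33 from 2 d to 3 d, and 259 and 108 from 3 d to 4 d. With the numbers crossed at 2 d, a pairing chosen after seeing the data, 237 and 35 were called.

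The direction turned for 11 named genes that did not pass the test as deposited. With a pseudocount of 0.1 the log2 fold change was 0.047 for CASP1 and 0.70 for CCA1, and with one of 5 it was -0.72 for LHY. Median-of-ratios scaling gave -0.21 for SHR, -0.021 for CEL5, -0.19 for LHY and -0.068 for LHCB1.3. Quantile normalization gave -0.37 for SHR, -0.26 for CEL5, -0.11 for LHY and -0.11 for ABCG6. On leaving out 1 library the range was -0.24 to 0.16 for CASP1, -0.83 to 0.24 for SGN3, -0.026 to 0.29 for SHR, -0.56 to 0.060 for GL2, -0.38 to 0.15 for PIN3, -4.43 to 3.71 for CCA1, -4.14 to 4.44 for LHY and -0.70 to 4.01 for TOC1. Of 164 named genes called, 72 kept their call under every alternative run and 92 lost it under at least 1.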
